A study of Rattus norvegicus with 11 samples.

Results

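A set of 10 hippocampal marker genes was compared between rats on a ketogenic diet and rats on a control diet. They were Fibcd1, Wfs1 and Bok for the CA pyramidal fields, Prox1 and Neurod1 for the dentate gyrus, Pvalb, Calb2 and Reln for interneurons, and Calb1 and Neurod2, which mark more than 1 of these populations. The members were the probe sets whose single gene symbol in the platform annotation was 1 of these names. All 10 genes were found, on 13 probe sets, out of 10411 genes on 12783 probe sets with 1 symbol. Bok, Wfs1 and Reln had more than 1 probe set. A probe set is a group of short array probes that report on the RNA of 1 gene, and all 13 were bright enough to be tested.

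Hippocampal total RNA was hybridised to 11 arrays, 5 of the ketogenic diet and 6 of the control diet. A ketogenic diet supplies mostly fat and little carbohydrate, and the labels describe it as protecting against epileptic seizures. The labels name no strain, sex or age of the rats and no time on the diet. They also do not say whether each array stands for its own animal, so the tests below refer to the spread between arrays, which may be technical. No allele, drug or surgery is named for either diet. The RNA came from bulk tissue that holds all of these cell types.

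The hippocampus passes signals from the granule cells of the dentate gyrus to the pyramidal cells of CA3 and on to those of CA1, and local interneurons that release GABA restrain each step. Pyramidal cells of each field, granule cells and interneurons are told apart in tissue by genes that few other hippocampal cells use. Most of the regional assignments used here come from mouse. Calcium-binding proteins such as parvalbumin, calbindin and calretinin are the classic labels of interneuron classes, although calbindin also fills granule cells and part of the CA1 pyramidal layer.

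The arrays differed in ways that touch all results. The median deposited signal was 79.9 to 87.9 on the ketogenic arrays and 89.2 to 94.2 on the control arrays. The actin control probe sets, which compare the 3′ and 5′ ends of 1 RNA and so move with RNA quality, gave log2 ratios of 0.75 to 0.99 on ketogenic arrays and 0.49 to 0.75 on control arrays, without overlap. The same ratio for Gapdh was 0.13 to 0.34 on ketogenic arrays and -0.07 to 0.15 on control arrays. Because the actin ratio went with diet, a fit with these ratios as covariates cannot tell diet and RNA quality apart. Only 6 probe sets of the whole array passed in that fit, so a lost call there says little about a single gene or list. Ketogenic array 3 stood apart. On the first principal component, which held 34.5% of the variance, it scored -2.82, against 18.6 to 25.7 on the other ketogenic arrays and -17.3 to -10.6 on the control arrays. Its title also carries a suffix that the others lack, with a meaning that is not given. Differences of members that passed or came near the threshold are also given without it.

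In the tissue as a whole, the pan-neuronal genes were read first. Of 12 measured genes of the general neuron list, such as Syn1 and Stmn2, 0 passed in either direction by limma, beside 16.9% of all genes tested. Their median log2 difference was -0.08, against -0.003 over all 8397 genes tested. Other processing changed the count of the list, to 3 higher and 0 lower both in the deposited values and after centring on the 75th percentile. Without ketogenic array 3 it was 0 higher and 2 lower. On single arrays the mean shift of this list lay between -0.09 and 0.003 in ketogenic samples and between -0.04 and 0.02 in control samples. All 10 marker genes were above the brightness limit for testing, a mean log2 level of 5.17. These values cannot tell the hippocampus from other brain regions, so they are no check of the tissue label.

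Of the 13 member probe sets, 2 passed an adjusted p of 0.05 in limma (Benjamini-Hochberg over 11899 probe sets), 1 higher and 1 lower in ketogenic hippocampus. That is 15.4% of the members, beside 16.5% of all tested probe sets. Over all tested probe sets 8.62% were higher and 7.87% were lower. Both passing members mark CA fields, Fibcd1 on the higher side and 1 of the Bok probe sets on the lower side. The 2 dentate probe sets, the 4 interneuron probe sets, Calb1 and Neurod2 did not pass. The diets overlapped in all 13 probe sets, where 6.99% of all tested probe sets did not overlap. The shares of members called and of members without overlap were thus near or below those of the array. In bulk tissue, fewer cells of a type and less RNA per cell cannot be told apart.

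**Figure D1:**
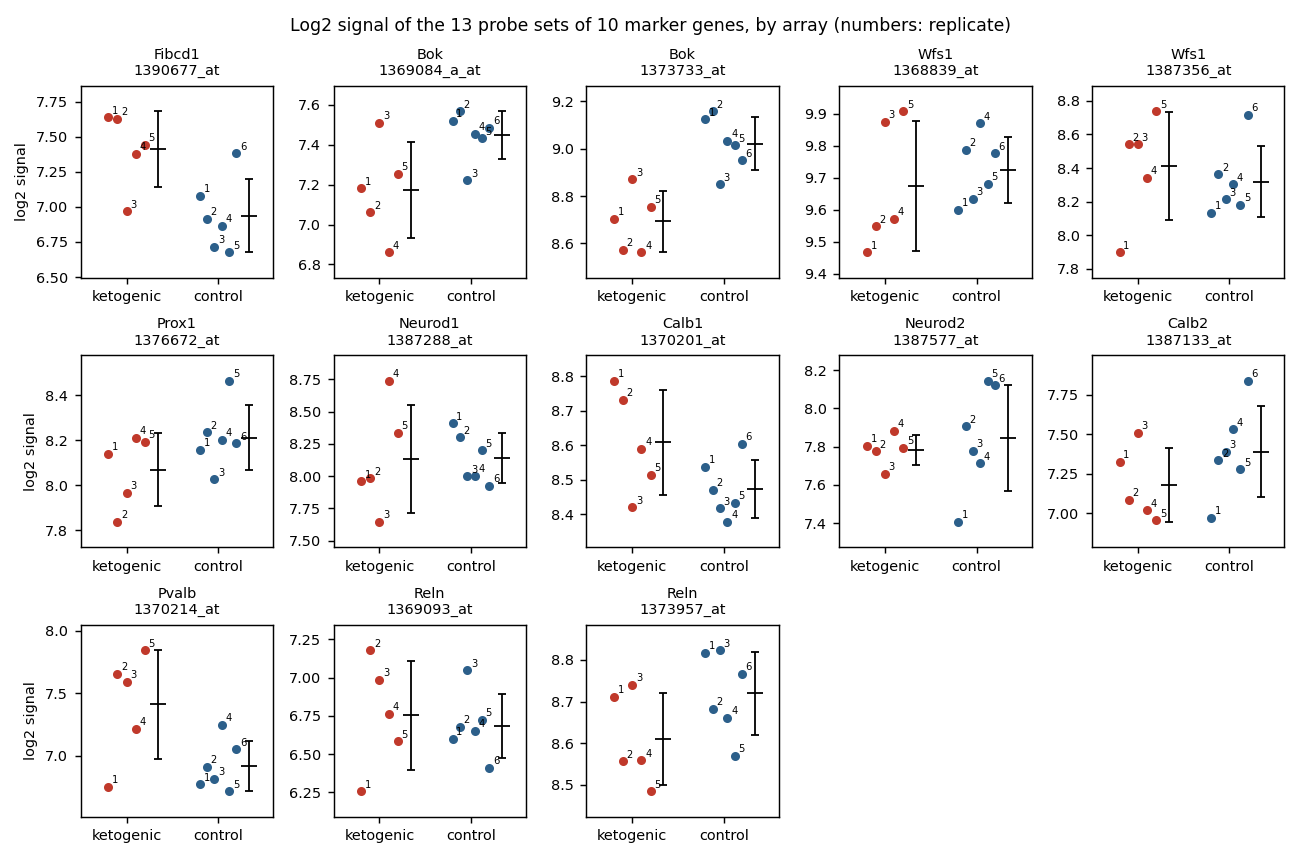
Log2 normalized signal of each member probe set on every array, ketogenic arrays to the left of control arrays, with each point 1 array numbered by its replicate and the bar the mean ± SD of its diet. Fibcd1 ran from 6.97 to 7.64 on ketogenic arrays and from 6.68 to 7.38 on control arrays, and the diets overlapped in every panel.

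Fibcd1 encodes a membrane receptor that binds acetylated sugars such as chitin, and in mouse brain its transcript is a label of CA1 pyramidal cells. Its probe set, 1390677_at, read 7.64, 7.63, 6.97, 7.38 and 7.44 on ketogenic arrays 1 to 5 (log2 normalized signal). On the 6 control arrays it ran from 6.68 to 7.38 with a median of 6.89. All 5 ketogenic arrays were above the control mean and 3 were above every control array, while ketogenic array 3 was the lowest of its diet and control array 6, at 7.38, the highest of the controls. Fibcd1 was 7.41 ± 0.27 (SD, n = 5) in ketogenic and 6.94 ± 0.26 (SD, n = 6) in control hippocampus. It rose by 0.47 on the log2 scale (SE 0.14, 95% interval 0.17 to 0.77), which is 1.39-fold, with an adjusted p of 0.0354 in limma. The deposited signal before log2 was 170 ± 29.0 in ketogenic and 128 ± 22.0 in control samples (SD). An exact two-sided permutation test of the same values gave p = 0.0216.

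The Fibcd1 call was narrow. Leaving out any of ketogenic arrays 1, 2, 4 and 5 or control arrays 2, 3, 4 and 5 put its adjusted p between 0.0621 and 0.0912, while without ketogenic array 3 the difference was 0.58 with an adjusted p of 0.00556. With the Gapdh and actin 3′ to 5′ ratios as covariates the difference was -0.20 (SE 0.16, adjusted p = 0.905), and 6 probe sets of the whole array passed in that fit.

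The Fibcd1 promoter is shown because this gene passed the test upwards, and those further below for members that varied together by Pearson r. It is taken from RefSeq on GRCr8, chr3:35524143-35524392 on the minus strand, 250 bases ending at the base before the annotated start, written 5′ to 3′.
Fibcd1: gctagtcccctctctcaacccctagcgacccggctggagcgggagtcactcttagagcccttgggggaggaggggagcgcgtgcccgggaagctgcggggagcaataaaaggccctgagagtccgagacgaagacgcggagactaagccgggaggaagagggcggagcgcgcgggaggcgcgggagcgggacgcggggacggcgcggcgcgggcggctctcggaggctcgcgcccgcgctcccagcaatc
The motif searched was the E-box, CANNTG, which reads the same class of letters on both strands and is the kind of site that NeuroD factors and other basic helix-loop-helix proteins bind. The Fibcd1 window held 0 E-boxes and was 72.0% G and C, where the median over 33469 promoters was 51.2%. An E-box was present in 65.5% of those promoters. The letters of the window are a description and no site of binding was measured.

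Wfs1, the gene of Wolfram syndrome, encodes a protein of the endoplasmic reticulum membrane and in mouse marks CA1 pyramidal cells. Neither of its probe sets passed. Probe set 1368839_at read 9.47, 9.55, 9.87, 9.57 and 9.91 on ketogenic arrays 1 to 5, against a control range of 9.60 to 9.87 with a median of 9.73. Its ketogenic values lay on both sides of the control range, 3 below all controls and 2 above all of them. The difference was -0.05 (SE 0.08, 95% interval -0.23 to 0.13, adjusted p = 0.706 in limma).

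Probe set 1387356_at of Wfs1 read 7.90, 8.54, 8.54, 8.34 and 8.74 on ketogenic arrays 1 to 5, against a control range of 8.13 to 8.72 with a median of 8.26. The ketogenic samples spread more widely than the controls and covered their range. The difference was 0.09 (SE 0.13, 95% interval -0.19 to 0.38, adjusted p = 0.657 in limma). The intervals of both Wfs1 probe sets left out 0.47, the estimate for Fibcd1. The interval of Fibcd1, 0.17 to 0.77, overlapped that of 1387356_at, and no test between these genes was made.

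Bok encodes a pro-apoptotic member of the BCL2 family and in mouse hippocampus marks CA3 pyramidal cells. On probe set 1373733_at it read 8.70, 8.57, 8.87, 8.56 and 8.76 on ketogenic arrays 1 to 5. Control arrays ran from 8.85 to 9.16 with a median of 9.02. Ketogenic arrays 1, 2, 4 and 5 were below every control, and only ketogenic array 3 reached into the control range, above control array 3. Bok was 8.69 ± 0.13 (SD, n = 5) in ketogenic and 9.02 ± 0.11 (SD, n = 6) in control hippocampus. It fell by 0.33 on the log2 scale (SE 0.07, 95% interval of the difference -0.49 to -0.17), or 1.26-fold, with an adjusted p of 0.0120 in limma and an exact permutation p of 0.00649.

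The other Bok probe set, 1369084_a_at, read 7.18, 7.06, 7.51, 6.86 and 7.26 on ketogenic arrays, against a control range of 7.22 to 7.57 with a median of 7.47. Again ketogenic array 3 was the highest of its diet, and 3 ketogenic arrays were below all controls. The difference was -0.27 (SE 0.11, 95% interval -0.50 to -0.05), and its adjusted p was 0.0879 in limma. Without ketogenic array 3 it was -0.36 with an adjusted p of 0.0145. The probe set that passed kept its call without any single array, with differences between -0.37 and -0.30 and an adjusted p of 0.00275 without ketogenic array 3, but with the 3′ to 5′ ratios as covariates it was -0.18 (adjusted p = 0.904).

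**Figure D2:**
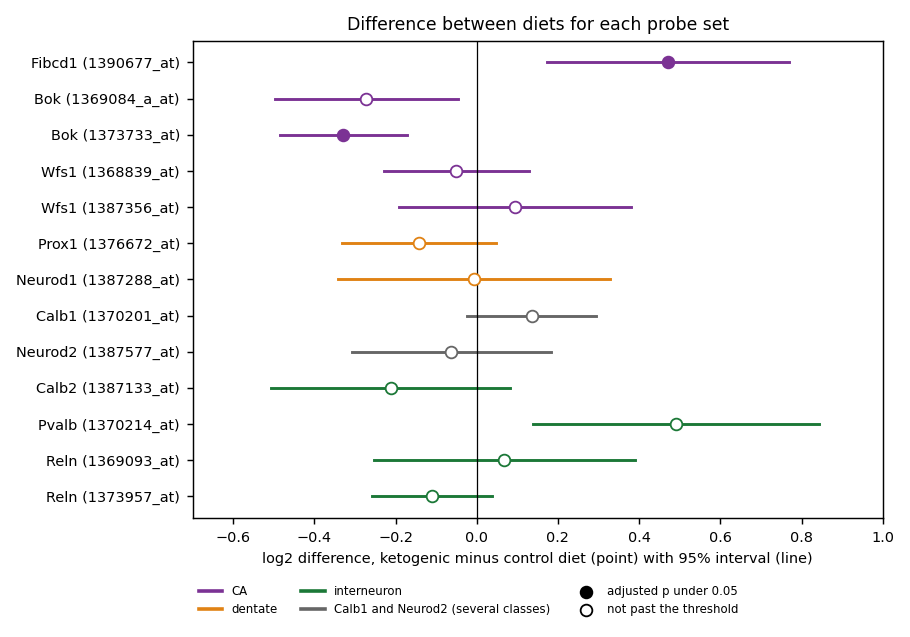
Difference in log2 signal, ketogenic minus control, of each member probe set with its 95% interval, coloured as CA, dentate and interneuron markers, with Calb1 and Neurod2 in grey. Fibcd1 at 0.47 and Bok at -0.33 are the members past an adjusted p of 0.05, drawn filled, and the open point of Pvalb at 0.49 has an interval of 0.14 to 0.84.

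Dentate markers showed no difference that passed. Prox1, the homeobox factor that maintains granule cell identity, read 8.14, 7.84, 7.97, 8.21 and 8.19 on ketogenic arrays 1 to 5, against a control range of 8.03 to 8.46 with a median of 8.19. All 5 ketogenic values were below the control mean of 8.21, yet 3 of them were inside the control range. The difference was -0.14 (SE 0.09, 95% interval -0.33 to 0.05, adjusted p = 0.279 in limma).

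Neurod1, a basic helix-loop-helix factor that drives the maturation of granule neurons, read 7.96, 7.98, 7.65, 8.74 and 8.34 on ketogenic arrays 1 to 5. The control range was 7.92 to 8.41 with a median of 8.10. Ketogenic arrays held both the lowest and the highest value of all 11, array 3 and array 4, and their SD was 0.42 beside 0.19 in controls. The difference was -0.01 (SE 0.16, 95% interval -0.34 to 0.33, adjusted p = 0.982 in limma).

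Calb1 encodes calbindin, a calcium buffer of granule cells, of part of the CA1 pyramidal layer and of some interneurons. It read 8.79, 8.73, 8.42, 8.59 and 8.51 on ketogenic arrays 1 to 5, against a control range of 8.38 to 8.60 with a median of 8.45. Ketogenic arrays 1 and 2 were above every control, and the others lay within the control range. The difference was 0.13 (SE 0.07, 95% interval -0.02 to 0.29, adjusted p = 0.220 in limma).

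Neurod2, a factor of the same family that is active in excitatory neurons of all fields, read 7.80, 7.77, 7.66, 7.88 and 7.79 on ketogenic arrays 1 to 5. Control arrays ran from 7.41 to 8.14 with a median of 7.84 and enclosed every ketogenic value. The SD was 0.08 in ketogenic and 0.28 in control samples. The difference was -0.06 (SE 0.11, 95% interval -0.31 to 0.18, adjusted p = 0.738 in limma).

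Interneuron markers went in different directions, and none passed. Pvalb encodes parvalbumin, the calcium buffer of fast-spiking basket and axo-axonic cells. It read 6.75, 7.65, 7.59, 7.21 and 7.84 on ketogenic arrays 1 to 5. Control arrays ran from 6.72 to 7.25 with a median of 6.86. Ketogenic arrays 2, 3 and 5 were above every control, ketogenic array 4 lay at the top of the control range and ketogenic array 1 near its bottom.

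Pvalb was 7.41 ± 0.43 (SD, n = 5) in ketogenic and 6.92 ± 0.20 (SD, n = 6) in control hippocampus. The difference of 0.49 (SE 0.17, 95% interval 0.14 to 0.84), 1.41-fold, was the largest of the 13 in size but had an adjusted p of 0.0542 in limma, which missed the threshold, and an exact permutation p of 0.0433. Without ketogenic array 1 it was 0.66 with an adjusted p of 0.0133, and without control array 4 it was 0.56 with an adjusted p of 0.0470. Without ketogenic array 3, which was among the high Pvalb arrays, it was 0.45 with an adjusted p of 0.0777.

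Calb2 encodes calretinin, found in interneurons that contact other interneurons, in young granule cells and, in mouse, in mossy cells. It read 7.32, 7.08, 7.51, 7.02 and 6.96 on ketogenic arrays 1 to 5, against a control range of 6.97 to 7.84 with a median of 7.36. The diets overlapped over most of their range. The difference was -0.21 (SE 0.14, 95% interval -0.51 to 0.08, adjusted p = 0.298 in limma).

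Reln encodes reelin, a secreted glycoprotein of Cajal-Retzius cells and of interneurons. Probe set 1373957_at read 8.71, 8.56, 8.74, 8.56 and 8.48 on ketogenic arrays 1 to 5, against a control range of 8.57 to 8.82 with a median of 8.72. Ketogenic arrays 2, 4 and 5 were below all controls by small margins. The difference was -0.11 (SE 0.07, 95% interval -0.26 to 0.04, adjusted p = 0.284 in limma).

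Probe set 1369093_at of Reln read 6.26, 7.18, 6.98, 6.77 and 6.58 on ketogenic arrays, against a control range of 6.41 to 7.05 with a median of 6.67. Its difference was 0.07 (SE 0.15, adjusted p = 0.787 in limma), opposite in sign to that of the other Reln probe set. The difference of 1369093_at was smaller than the SD between arrays of either diet, 0.36 in ketogenic and 0.21 in control samples. That of 1373957_at was about the size of its SDs, 0.11 in ketogenic and 0.10 in control samples.

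Set side by side, the classes did not separate. The CA probe sets had a median log2 difference of -0.05 with values from -0.33 to 0.47. The 2 dentate probe sets had a median of -0.07, and the 4 interneuron probe sets had a median of -0.02 with values from -0.21 to 0.49. Over all 13 members 5 differences were positive and 8 negative, with a median of -0.05, beside 49.2% positive and a median of -0.004 over all tested probe sets. No test between classes was made, since probe sets of 1 class share their samples.

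**Figure D3:**
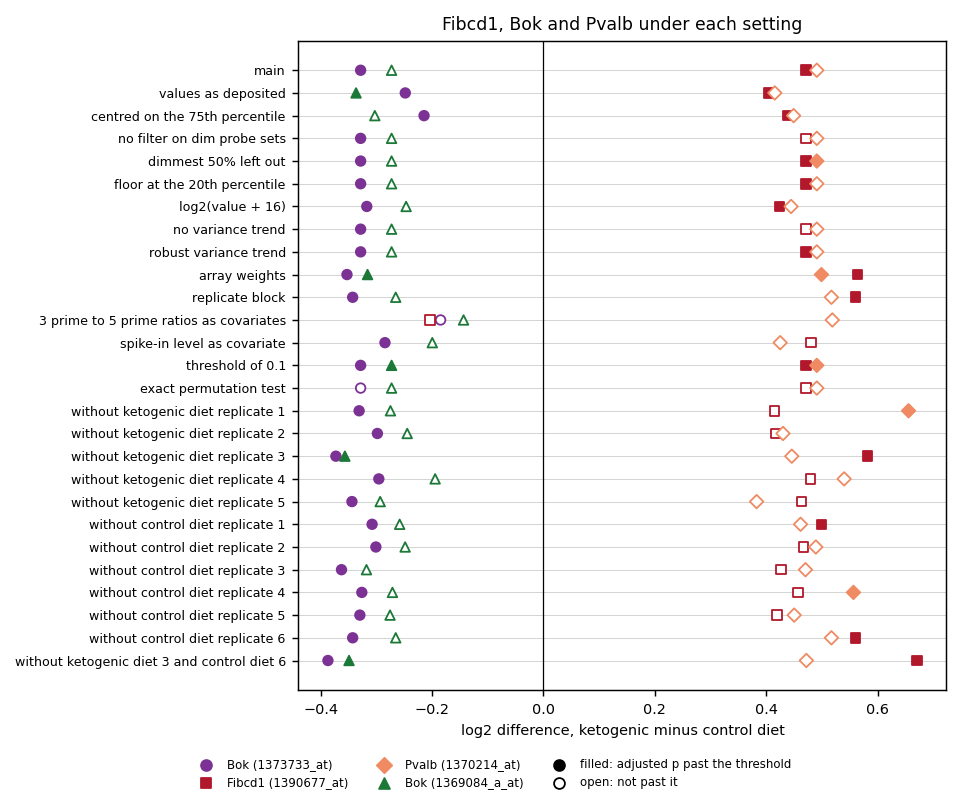
Log2 difference, ketogenic minus control, of Fibcd1, both Bok probe sets and Pvalb (x axis) under each processing setting (y axis), filled where the adjusted p passed the threshold of that setting. Bok 1373733_at lay below 0 in every setting shown, and Fibcd1 lay above 0 except with the 3′ to 5′ ratios as covariates, at -0.20.

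How the members varied with each other was read from each array's deviation from its own diet mean, over 11 arrays and 78 pairs of probe sets. Values of r ran from -0.75 to 0.90, and 3 pairs had an adjusted p under 0.05 (permutation test of r, Benjamini-Hochberg over 78 pairs), with 8 under 0.05 unadjusted. All of these arrays share a normalization, so the deviations are not independent of each other.

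The highest correlation was between the Bok probe sets, with r = 0.902 and rho = 0.927 (permutation p = 5e-05 for r, adjusted p = 0.0039), and r was 0.908 without the 2 arrays farthest from the median. The Reln probe sets gave r = -0.033 (adjusted p = 0.986), and the Wfs1 probe sets gave r = 0.697 (adjusted p = 0.169). Probe sets of 1 gene thus did not always report the same variation between arrays.

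Fibcd1 and Calb1 varied together, with r = 0.862 and rho = 0.845 (permutation adjusted p = 0.0316 for r and 0.0486 for rho), and r was 0.773 without the 2 farthest arrays. Over the 6 control arrays alone, r was 0.888. Wfs1, the other CA1 member, did not vary with them in this way. Against Calb1 it gave r = -0.717 on probe set 1368839_at (permutation adjusted p = 0.169) and r = -0.272 on 1387356_at (adjusted p = 0.937). Against Fibcd1 the values were -0.343 (permutation adjusted p = 0.906) and 0.121 (adjusted p = 0.937).

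Wfs1 probe set 1387356_at and Pvalb gave r = 0.851 (permutation adjusted p = 0.0348) and rho = 0.791 (adjusted p = 0.106), with r = 0.840 without the 2 farthest arrays. Over the 6 control arrays alone, r was 0.531, and over the 5 ketogenic arrays 0.989. The other Wfs1 probe set, 1368839_at, gave r = 0.777 against Pvalb (permutation adjusted p = 0.0798). Neurod1 and Calb2 ran opposite, with r = -0.750 (permutation adjusted p = 0.123) and rho = -0.882 (adjusted p = 0.0296), so this pair passed by rank only.

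The promoters of Wfs1 and Pvalb are shown because 1 Wfs1 probe set passed with Pvalb by Pearson r, though not by rank. They are RefSeq windows on GRCr8 of 250 bases before the start, Wfs1 at chr14:78034955-78035204 on the plus strand and Pvalb at chr7:111666290-111666539 on the minus strand, with E-boxes in capitals.
Wfs1: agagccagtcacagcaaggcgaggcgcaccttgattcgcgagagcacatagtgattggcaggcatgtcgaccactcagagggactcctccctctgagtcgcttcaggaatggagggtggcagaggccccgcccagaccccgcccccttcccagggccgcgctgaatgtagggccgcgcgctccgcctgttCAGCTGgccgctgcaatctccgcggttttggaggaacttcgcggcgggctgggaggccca
Pvalb: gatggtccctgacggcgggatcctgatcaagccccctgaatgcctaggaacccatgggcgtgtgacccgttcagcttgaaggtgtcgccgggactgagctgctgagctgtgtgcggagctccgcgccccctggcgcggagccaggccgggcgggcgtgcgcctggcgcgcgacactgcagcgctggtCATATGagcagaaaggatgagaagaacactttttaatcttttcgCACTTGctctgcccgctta
Wfs1 held 1 E-box, CAGCTG, 60 bases before the start. Pvalb held CATATG 63 bases and CACTTG 19 bases before it. The E-box letters CAGATG, a subset of CANNTG counted on either strand, are in 14.0% of all promoters, and among the 6 members found in the promoter table only Neurod2 held them. The members found were Fibcd1, Wfs1, Neurod1, Neurod2, Pvalb and Reln.

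**Figure D4:**
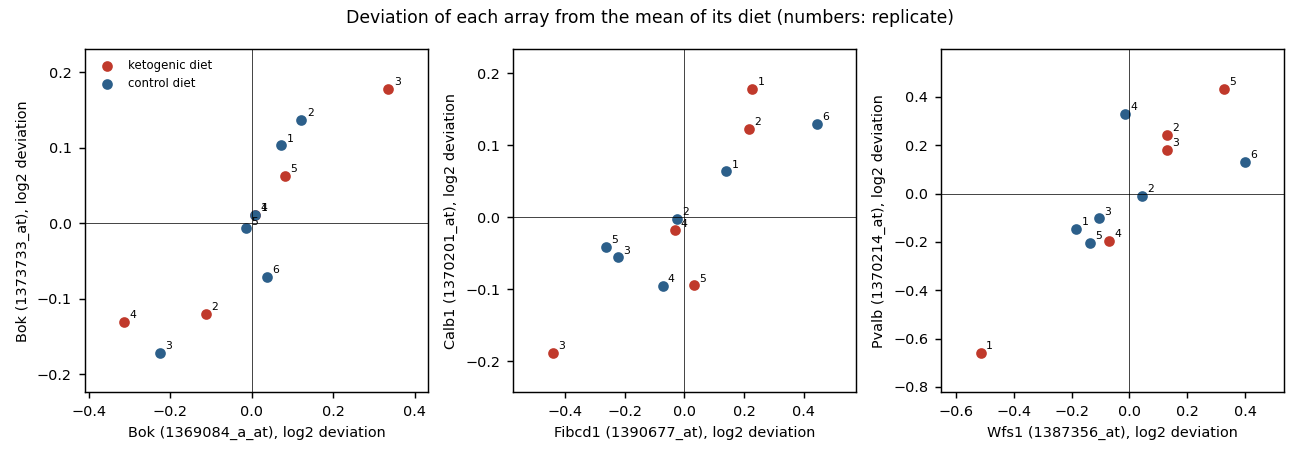
Deviation of each array from the mean of its diet, in log2 signal, for the 3 pairs of probe sets with an adjusted p under 0.05, ketogenic and control arrays in different colours and numbered by replicate. The Bok probe sets lie along a rising line with r = 0.902, and Fibcd1 with Calb1 gives r = 0.862 over 11 arrays.

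Genes whose variation between arrays was most like a member's were named from all 11899 tested probe sets, by Pearson r of the deviations over 11 arrays and without a p. For Fibcd1 they were Crym (r = 0.941), Fam193a (r = 0.934) and Irak1bp1 (r = 0.924). For Bok probe set 1373733_at they were Mprip (r = 0.957), Atp10d (r = 0.919) and Sftpd (r = 0.897). For Calb1 the closest was Hebp1 (r = 0.973), for Prox1 Zmynd8 (r = 0.913) and for Calb2 Mrpl49 (r = 0.945). For Pvalb the values were lower, led by Psmd5 and Slc16a6 at r = 0.875.

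The CA1 list, which includes Fibcd1 and Wfs1, was the marker list with the highest median. Of 7 measured genes 3 rose and 0 fell, beside 8.85% and 8.04% of all genes tested at 1 probe set a gene, with a median of 0.37 against -0.003. Differences were positive for 4 of the 7. Those of Ccn3 (-0.17), Man1a1 (-0.09) and Wfs1 probe set 1368839_at (-0.05) were negative and did not pass. The lists were chosen with earlier results of these data known, so they are no independent evidence. Gpr161, a receptor of the primary cilium, rose by 0.90 (SE 0.16, 1.87-fold, adjusted p = 0.00481 in limma), at 8.11 ± 0.25 in ketogenic and 7.21 ± 0.36 in control samples (SD). Mpped1 rose by 0.54 (SE 0.11, adjusted p = 0.00823 in limma). Single-array means of the list lay between 0.07 and 0.40 in ketogenic and between -0.15 and 0.20 in control samples, so the diets overlapped. With the 3′ to 5′ ratios as covariates 0 of the 7 passed and the median was 0.03, while without ketogenic array 3 the counts were 4 higher and 0 lower with a median of 0.53.

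Of 5 CA3 genes, Grik4 and Bok passed in opposite directions, and the list median was -0.15. That is 40% of the list, beside 42.9% of the CA1 list and 16.9% of all genes tested. Grik4, a kainate receptor subunit, rose by 1.04 (SE 0.27, 2.05-fold, adjusted p = 0.0209 in limma), at 6.81 ± 0.34 in ketogenic and 5.77 ± 0.66 in control samples (SD). With the level of the spike-ins, bacterial RNA added to each sample, as a covariate Grik4 did not pass and Bok did, and without ketogenic array 3 the counts were again 1 higher and 1 lower. Of 9 CA2 genes 2 rose and 2 fell, 44.4% of the list, with a median of -0.24. In the deposited values 2 rose and 4 fell. Ptpn5, a phosphatase of striatal and hippocampal neurons, rose by 0.32 (adjusted p = 0.0195 in limma), and Fgf2, a growth factor, fell by 0.54 (adjusted p = 0.00623 in limma).

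Of 10 dentate granule cell genes 0 passed in either direction, beside 16.9% of all genes tested, and the median was 0.09. The smallest p belonged to Igfbp5, a binding protein of insulin-like growth factors, at -0.15 (adjusted p = 0.156 in limma). Pdyn, the precursor of dynorphin, differed by 0.38 (adjusted p = 0.195 in limma). Without ketogenic array 3 the count was 1 higher and 0 lower, and without both that array and control array 6 it was 3 higher and 0 lower.

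Of 24 interneuron genes 0 rose and 1 fell, 4.17% of the list beside 16.9% of all genes tested, and the median was -0.09. The list also held Vwf, a gene of blood vessel endothelium that is no interneuron marker. Syt2, a calcium sensor of fast synapses, fell by 0.74 (adjusted p = 0.0279 in limma), though its ketogenic mean of 5.40 lay close to the testing limit of 5.17. The GABA-synthesis gene Gad1 differed by 0.10 (adjusted p = 0.353), somatostatin (Sst) by -0.16 (adjusted p = 0.324) and the vesicular GABA transporter Slc32a1 by -0.05 (adjusted p = 0.711 in limma). The counts depended on the processing, at 1 higher and 5 lower in the deposited values and 1 higher and 6 lower without ketogenic array 3. After centring on the 75th percentile they were 2 higher and 5 lower, and with the spike-in level as covariate 0 passed, of 24 in each case.

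**Figure D5:**
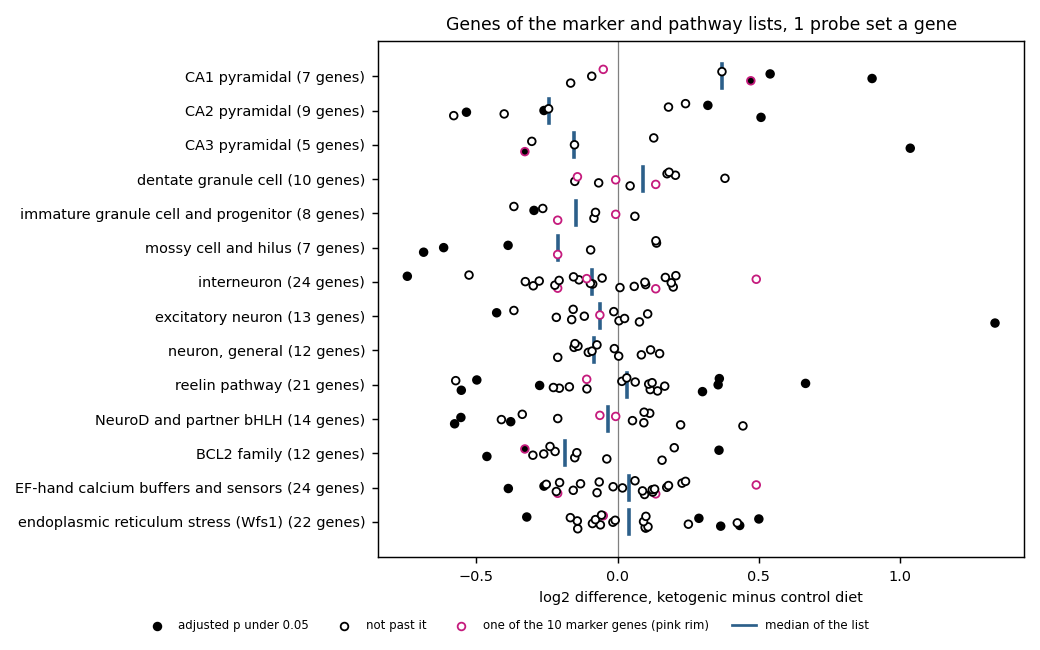
Log2 difference, ketogenic minus control, of every tested gene in 14 marker and pathway lists (1 row each), with each list's median as a bar and the 10 marker genes rimmed in pink. The CA1 list has a median of 0.37, the dentate list 0.09 and the interneuron list -0.09, and points past an adjusted p of 0.05 are filled.

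The pathways of single members were read in the same way. With the 3′ to 5′ ratios as covariates, 0 genes passed in each of the reelin, BCL2, endoplasmic reticulum stress, basic helix-loop-helix and EF-hand lists. As only 6 probe sets of the whole array passed in that fit, these counts do not bear on the lists. Reelin acts through the receptors Vldlr and Lrp8 and a chain of kinases and cytoskeletal proteins. Neither receptor passed on the probe set read, at 0.03 for Vldlr (adjusted p = 0.898) and 0.17 for Lrp8 (adjusted p = 0.396 in limma). Vldlr had 2 other tested probe sets, whose values are not given here. Of 21 genes of the reelin list 4 rose and 3 fell, 33.3% of the list beside 16.9% of all genes tested. The list median was 0.03, and -0.061 in the deposited values. Pafah1b1, a dynein regulator, rose by 0.67 (adjusted p = 0.00492 in limma) and Cdk5r1, the activator of Cdk5, fell by 0.55 (adjusted p = 0.0095 in limma).

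Around Bok, 1 of 12 genes of the BCL2 family rose and 2 fell, with a median of -0.19, where 16.9% of all genes tested passed. In the deposited values 1 rose and 5 fell, and after centring on the 75th percentile 1 rose and 4 fell. Bnip3l, a mitophagy receptor, rose by 0.36 (adjusted p = 0.00626 in limma), and the anti-apoptotic Bcl2l1 fell by 0.46 (adjusted p = 0.018 in limma), as did Bok. Around Wfs1, 4 of 22 genes of endoplasmic reticulum stress rose and 1 fell, with a median of 0.04. The number that rose was 7 in the deposited values and after centring on the 75th percentile, and 1 with the spike-in level as covariate. Pdia6 rose by 0.29 (adjusted p = 0.0181 in limma) and Ddit3, a stress-induced transcription factor, by 0.43 (adjusted p = 0.0215). Sel1l fell by 0.32 (adjusted p = 0.0234 in limma). Differences of Hspa5 (0.09), Xbp1 (-0.06) and Atf4 (-0.14) did not pass, and 11 of the 22 differences were positive.

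Around Neurod1 and Neurod2, 0 of 14 basic helix-loop-helix genes rose and 3 fell, with a median of -0.03. That is 21.4% of the list, beside 16.9% of all genes tested. Without ketogenic array 3 the number that fell was 5. The 3 that fell with all arrays were Id4, Hes1 and Hes6, by 0.55, 0.58 and 0.38 on the log2 scale (adjusted p = 0.00838, 0.0146 and 0.0341 in limma). Id4 and Hes1 are known to restrain neuronal differentiation, and an effect on it was not tested. Other Id and Hes genes of the list did not pass. Id1 (0.05) and Hes5 (0.09) were positive, and Id2 (-0.41) and Id3 (-0.21) were negative. Around the calcium-binding members, 0 of 24 EF-hand genes rose and 2 fell, Kcnip4 and Necab2, 8.33% of the list, with a median of 0.04. The direction of these calls turned with the scaling, at 2 higher and 1 lower in the deposited values and 4 higher and 1 lower after centring on the 75th percentile. Without both ketogenic array 3 and control array 6 the counts were 4 higher and 3 lower.

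Markers of other cell types were read in the same samples, and their part in the results above was not tested. Over all genes tested 16.9% passed, beside 100% of the red cell list, 33.3% of the microglial and 27.3% of the choroid plexus list. The share was 20% for meninges and fibroblasts and for oligodendrocytes, 16.7% for astrocytes and 14.3% for vascular genes, near that of all genes. All 5 measured red cell genes passed, 1 higher and 4 lower, with single-array means of -1.42 to -0.95 in ketogenic and -0.23 to 0.14 in control samples. Of 11 choroid plexus genes 3 fell, with means of -0.52 to 0.02 in ketogenic and -0.22 to 0.44 in control samples. Of 10 genes of meninges and fibroblasts 2 fell, with a median of -0.48 and single-array means of -0.67 to 0.04 in ketogenic and -0.36 to 0.59 in control samples. The genes that fell were the collagen gene Col1a1, by 0.65 (adjusted p = 0.00626 in limma), and Igfbp2, by 1.21 (adjusted p = 0.0337 in limma). Of 12 astrocyte genes 2 fell, Aqp4 and Gfap, with means of -0.17 to 0.01 in ketogenic and -0.05 to 0.05 in control samples, and after centring on the 75th percentile 1 rose and 0 fell. Of 10 oligodendrocyte genes 2 fell, Mag and Ugt8, with means of -0.28 to 0.09 in ketogenic and -0.22 to 0.23 in control samples. Of 9 microglial genes 1 rose, Ctss, and 2 fell, Aif1 and Csf1r, with means of -0.16 to 0.10 in ketogenic and -0.16 to 0.07 in control samples. Of 7 vascular genes 1 fell, Slco1a4, with means of -0.34 to -0.03 in ketogenic and -0.10 to 0.06 in control samples, and in the deposited values 4 fell. None of these lists holds any of the 10 members.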

How the data were processed

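Hippocampal total RNA of 5 ketogenic and 6 control samples was measured on 1-colour arrays. The authors deposited linear probe set intensity values for 15923 probe sets. How scanner images became these intensity values is not given in the sources used here. Trimmed means of 150.023 to 150.028 on every array show that the deposited values had been scaled.

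Because array medians of the deposited log2 intensity spanned 0.24, above a limit of 0.1, values were quantile normalized, raised to a floor of 5.02 (5th percentile) and taken to log2. The 57 control probe sets and the dimmest 25% of the rest were not tested, leaving 11899. Ketogenic minus control was fitted by limma 3.58.1 under R 4.3.3 (variance trend, two-sided, Benjamini-Hochberg over all tested probe sets, threshold 0.05), and the fit was tested on simulated data. Exact permutation tests of 5 against 6 samples allow no p below 0.00216. The number of arrays limits the precision.

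Of 13101 annotated probe sets, 12789 had 1 symbol and 312 several, and 2771 were unnamed here. Gene identifiers of 12754 matched a RefSeq gene table. Each list gene was read from 1 tested probe set, that of highest mean. Some list genes named above had other tested probe sets, whose values are not given here. These included Pafah1b1, Bcl2l1, Bnip3l and Gad1 with 1 other each, and Vldlr and Aqp4 with 2 others each. The named genes are all 10 members and, from 25 lists, at most 3 genes with the smallest p, with further called genes and checks named after their values were seen. Likeness used the 3 closest genes. Members, lists and settings were chosen with earlier results of these data known. Alternatives covered normalization, floor, filter, variance model, array weights, covariates, threshold and left-out arrays. Replicate numbers are shared by both diets. Same-numbered arrays deviated together by r of 0.00895 to 0.0771, with 0 of 5 above 0.1, so they were not treated as pairs.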

Additional observations from a re-analysis of the deposited data

How the results depend on the processing

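The number of probe sets passing the test was 1962, split 1026 higher and 936 lower (52.3% higher), and 2 of them were members. In the deposited values without further normalization it was 2812, split 1076 higher and 1736 lower (38.3% higher), with 3 members. It was 3136 with array weights, 6 with the 3′ to 5′ ratios as covariates, 767 with the spike-in level as covariate, 3070 at a threshold of 0.1 and 551 with the exact permutation test. Members passing were 1 without a filter on dim probe sets, 1 without the variance trend, 4 with array weights, 0 with the 3′ to 5′ ratios, 1 with the spike-in level, 4 at a threshold of 0.1 and 0 with the exact permutation test. Leaving out 1 array gave 806 to 3165 probe sets and 1 to 3 members. Leaving out both ketogenic array 3 and control array 6, an alternative chosen after seeing the data, gave 3228 and 4. The arrays whose loss moved the total by over 1.5 times were ketogenic 1 (1212), 2 (855), 3 (3165), 4 (806) and 5 (1235) and control 2 (1169), 3 (1256) and 5 (1263).

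Signs turned in these cases, and the cause was not tested. Wfs1 1368839_at was 0.071 as deposited, 0.10 centred on the 75th percentile, 0.12 with the 3′ to 5′ ratios and 0.022 as the mean of the gene's probe sets, and -0.11 to 0.0010 with 1 array left out. Neurod1 was 0.012 as deposited, 0.046 centred on the 75th percentile, 0.10 with array weights, 0.084 with the 3′ to 5′ ratios and 0.072 with both arrays out, and -0.16 to 0.12 with 1 array left out. Reln 1369093_at was -0.033 as deposited, -0.092 with the spike-in level, -0.021 as the gene mean and -0.045 with both arrays out, and -0.039 to 0.19 with 1 array left out. With the 3′ to 5′ ratios Fibcd1 was -0.20 and Calb1 -0.13, and Neurod2 was 0.024 with both arrays out. None of these members passed there.

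Fibcd1 also missed the threshold without the filter, without the variance trend, with the spike-in level and by exact permutation (adjusted p = 0.0736, 0.0510, 0.0808 and 0.102). Bok 1373733_at missed it by exact permutation (adjusted p = 0.0625) and with the ratios. With the replicate block 1815 probe sets and the same number of members, 2, passed, and the block changed no call of a member. Depth cannot be stated for arrays. Intensities close to background limit the dim list genes.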

Other observations

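Genes of the hilus and of young granule cells were read from lists that hold Calb2 and Neurod1. Of 7 mossy cell and hilus genes 0 rose and 3 fell, beside 8.85% and 8.04% of all genes tested. The median log2 difference was -0.21, against -0.003 over all genes. Differences of Gria2 and Ociad2 were positive, at 0.14 each, and did not pass. The dopamine receptor gene Drd2 fell by 0.62 (adjusted p = 0.0152 in limma), the receptor subunit gene Calcrl by 0.69 (adjusted p = 0.00875) and the ghrelin receptor gene Ghsr by 0.39 (adjusted p = 0.0450). The ketogenic mean of Calcrl, 5.33, lay close to the testing limit of 5.17. Single-array means were -0.33 to -0.18 in ketogenic and -0.16 to 0.12 in control samples. With the 3′ to 5′ ratios as covariates 0 passed, and without ketogenic array 3 the counts were 2 higher and 2 lower. Of 8 progenitor and immature granule cell genes 0 rose and 1, Sox4, fell, by 0.30 (adjusted p = 0.0256 in limma).

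Genes of neighbouring brain regions were also read. They cannot serve as a check on dissection, since hippocampal cells use some of them too. The cerebellar list holds the members Pvalb, Calb1 and Neurod1, and the thalamic list shares Prkcd with the CA3 list. Of 7 neocortex and subiculum genes 0 passed. Of 10 cerebellar genes 1 fell, Gabra6, by 0.65 (adjusted p = 0.0106 in limma). Of 9 striatal genes 1 rose, Rasd2, and 1 fell, Drd2, which is the same probe set and value as in the hilus list. Of 7 thalamic genes 1 fell, Slc17a6, which also stands in the excitatory neuron list. In the excitatory neuron list, Camk2a rose by 1.34 (adjusted p = 0.00397 in limma) and Slc17a6 fell by 0.43 (adjusted p = 0.0152), with 13 genes measured. That is 15.4% of the list, beside 16.9% of all genes tested, and the list median was -0.06. Camk2a had 2 other tested probe sets, whose values are not given here. Among 26 groups of member values, 1 diet of 1 probe set each, 0 held an array that stood apart by Dixon's test.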
